A study of Mus with 4 samples.

Results

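The regions described here are the stretches of the mouse genome with TBX3 ChIP signal over Input whose highest point lay outside every protein-coding gene and more than 1 kb from the ends of any such gene. They were chosen by the values of the deposited track, which are −log10 p-values and are called scores here. A region was a run of bases scoring 3 or more on chromosomes 1 to 19 and X of mm10, with gaps of 30 bp or less bridged and a length of 200 bp or more. The summit of a region was the middle of its highest interval. Of 773 regions called in this way, 337 (43.6%, 95% Wilson interval 40.1 to 47.1) had their summit outside protein-coding genes, 213 had it at a gene end and 223 had it inside a gene. The title of each library carries only the mark R1, for a first read. Whether the track counts both mates of a read pair is not given in the sources used here. If it does, counting each pair once was approximated by dividing both inferred levels by 2, with the ChIP reads rounded down, which favours the loss of calls. Then 35 of 112 regions (31.2%) lay outside, and 30 of the 337 (8.9%) still held a call. Among the 15 highest, 12 did, the exceptions being the regions near Malat1, Zfp608 and Csmd1, and among the 64 with a noncoding gene at the summit, 8 did. All intervals of shares given here cover counting only. Because the regions were selected on the score, their scores, read numbers and expected levels are given as a description, with no test.

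TBX3 is a T-box transcription factor known mainly as a repressor, and in the liver it is a target of Wnt signalling in the hepatocytes around the central vein. Sequence-specific factors bind at promoters and also at distal elements such as enhancers and silencers, which can lie in or between genes and far from the gene they act on. The ground between protein-coding genes also holds long noncoding RNA genes, microRNA genes, pseudogenes and repeated sequence, and reads from repeated sequence pile up at the copies that the genome build contains.

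The study immunoprecipitated chromatin of primary mouse hepatocytes that carried the construct pT2-SVNeo-EF1-eGFP-P2A-Tbx3-HA using an anti-HA antibody and sequenced 2 TBX3 ChIP and 2 Input libraries. Input is sheared chromatin of the same kind of cells before immunoprecipitation, so all 4 libraries came from cells that overexpressed TBX3. The EF1 promoter drove the tagged protein, a Sleeping Beauty transposon inserted it into the genome of cells grown in expansion medium, and G418 selected the cells, so the sites are those of an overexpressed, tagged TBX3 in cultured cells. A library made with a control antibody or from cells without the construct was not analysed here, and the track holds no RNA with which the cell type could be checked against its markers.

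The track gives 1 score per base over all libraries that entered it and no value per library, and therefore the values below carry no replicate error. The number of ChIP reads over a summit and the number expected there from Input were inferred by finding which whole read number and which Input level yield that score under a Poisson model. The genome-wide level, which is the lowest expected level, was 2.43 reads, and the inferred ChIP pileup on these chromosomes came to 29900000 reads. A pair of levels was found at all but 2 of the 337 summits.

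Most regions outside protein-coding genes were weak and narrow. A score of 5.44, where the Benjamini-Hochberg adjusted p of a base is 0.05, was reached by 195 of the 337 summits (57.9%), against 527 of all 773 (68.2%), 185 of 213 at gene ends (86.9%) and 147 of 223 inside genes (65.9%). These shares are a description and no test, since the score chose the regions. The summit scores outside protein-coding genes ran from 3.65 to 37.2 with a median of 5.75, their summits held between 9 and 241 reads with a median of 12, and their lengths ran from 200 to 5817 bp with a median of 234 bp. At least 300 bp were covered by 67 of them, at least 500 bp by 17 and at least 1000 bp by 2. The median summit score was 7.96 at gene ends and 6.51 inside genes.

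The share of regions outside protein-coding genes was lower among the higher summits. They made up 74 of 125 regions with a summit score from 3 to 5 (59.2%, interval 50.4 to 67.4), 231 of 532 with a score from 5 to 10 (43.4%, 39.3 to 47.7) and 32 of 116 with a score of at least 10 (27.6%, 20.3 to 36.3). Of all bases on these chromosomes, 58.5% lay outside protein-coding genes and more than 1 kb from their ends, so the share among the lowest summits was close to the share of the ground and the share among the highest was under it. A score of at least 3 was reached by 0.343% of bases outside protein-coding genes and by 0.34% of all bases. With a minimum length of 100 bp in place of 200 bp, 13348 of 23216 runs (57.5%) lay outside. With regions called anew from bases scoring at least 5, 38 of 125 (30.4%, 23.0 to 38.9) lay outside. From bases scoring at least 10, 11 of 29 did (37.9%, 22.7 to 56.0), so the share did not fall steadily with this limit.

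**Figure D1:**
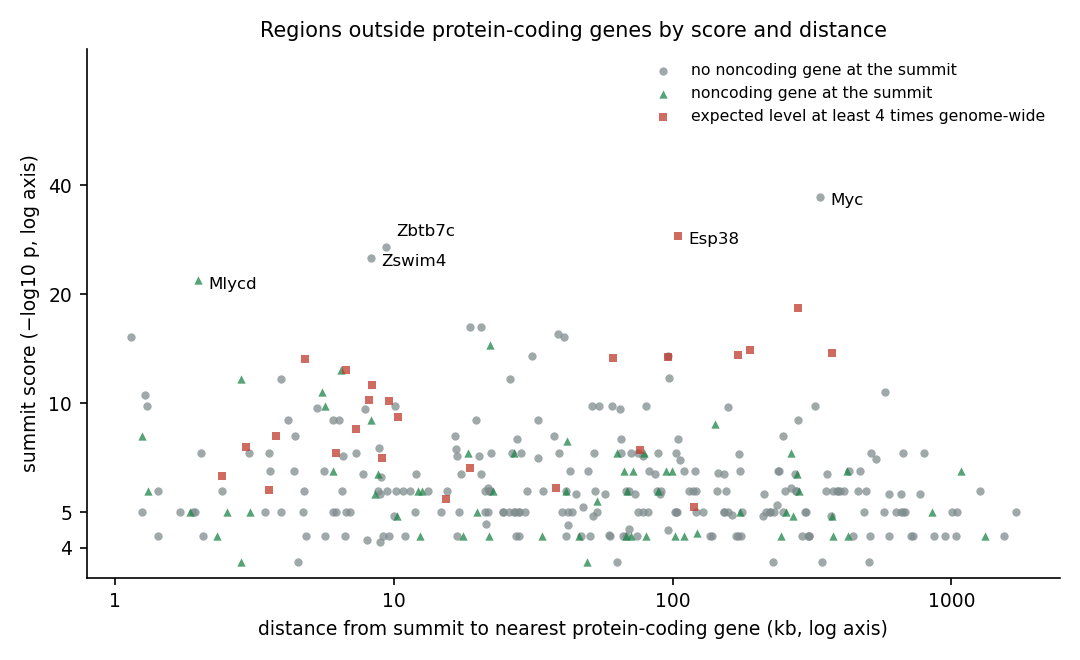
Summit score of the 337 regions (vertical, −log10 p, log axis) against the distance to the nearest protein-coding gene (horizontal, kb, log axis), with 1 point per region, green triangles for a noncoding gene at the summit, red squares for an expected level at least 4 times genome-wide and the 5 highest regions labelled by their nearest gene. The highest region lies 338073 bp from Myc, and the median score is between 5.01 and 6.51 in every range of distance.

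The highest summit of this class lay in the gene desert beyond Myc, the proto-oncogene that drives cell growth and division. The region chr15:62328223-62328627 had a score of 37.2, behind only 2 of all 773 regions, with 42 reads over 2.43 expected. Its summit was 338073 bp from the end of Myc and 68219 bp beyond Pvt1, a long noncoding RNA gene next to Myc, and the next protein-coding gene on the other side, Gsdmc, was 1447537 bp away. The signal was a single narrow peak. The mean pileup was 40.1 reads just beside the summit, 1.35 reads at 290 bp on one side and 7.25 reads at 290 bp on the other, against an expected level that stayed close to genome-wide.

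A second region in the same desert, chr15:62568881-62569103, had a score of 10.7 from 18 reads over 2.43 expected, at 578645 bp from Myc. It held no call with each read pair counted once, or with the expected level raised on chromosomes of high depth in proportion to that depth, whereas the higher region held one under both. Over the 1785610 bp between Myc and Gsdmc, in 179 steps of 10 kb, the median of the highest score in a step was 3.02, and 3 steps reached a score of 10. Besides the steps of these 2 regions, this was a step beginning 1340000 bp after Myc, where a run shorter than 200 bp reached 14.1 and was not called. The highest score within 1 kb of Pvt1 was 4.31, and Pvt1 held no region.

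The regions near Zbtb7c, Zswim4 and Mlycd had summit scores over 20 as well, with an expected level near the genome-wide one. The region chr18:75810431-75811671 lay 9394 bp from Zbtb7c, which encodes a zinc finger transcription factor, and had a score of 27.1 from 34 reads over 2.50 expected. It was 1241 bp long, with a second and lower rise to the side of the summit. The region chr8:84202442-84202913 lay 8265 bp from Zswim4 and 5841 bp from the microRNA gene Mir23a, with a score of 25.2 from 32 reads over 2.43 expected. A smaller region followed it at chr8:84203060-84203267, with a score of 6.37 from 13 reads. The region chr8:119423643-119424002 lay between Mlycd, which encodes malonyl-CoA decarboxylase of fatty acid metabolism, and the stress-induced gene Osgin1, at 1986 bp and 2058 bp from them and inside the long noncoding RNA gene Gm32006. Its score was 21.9 from 29 reads over 2.43 expected.

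**Figure D2:**
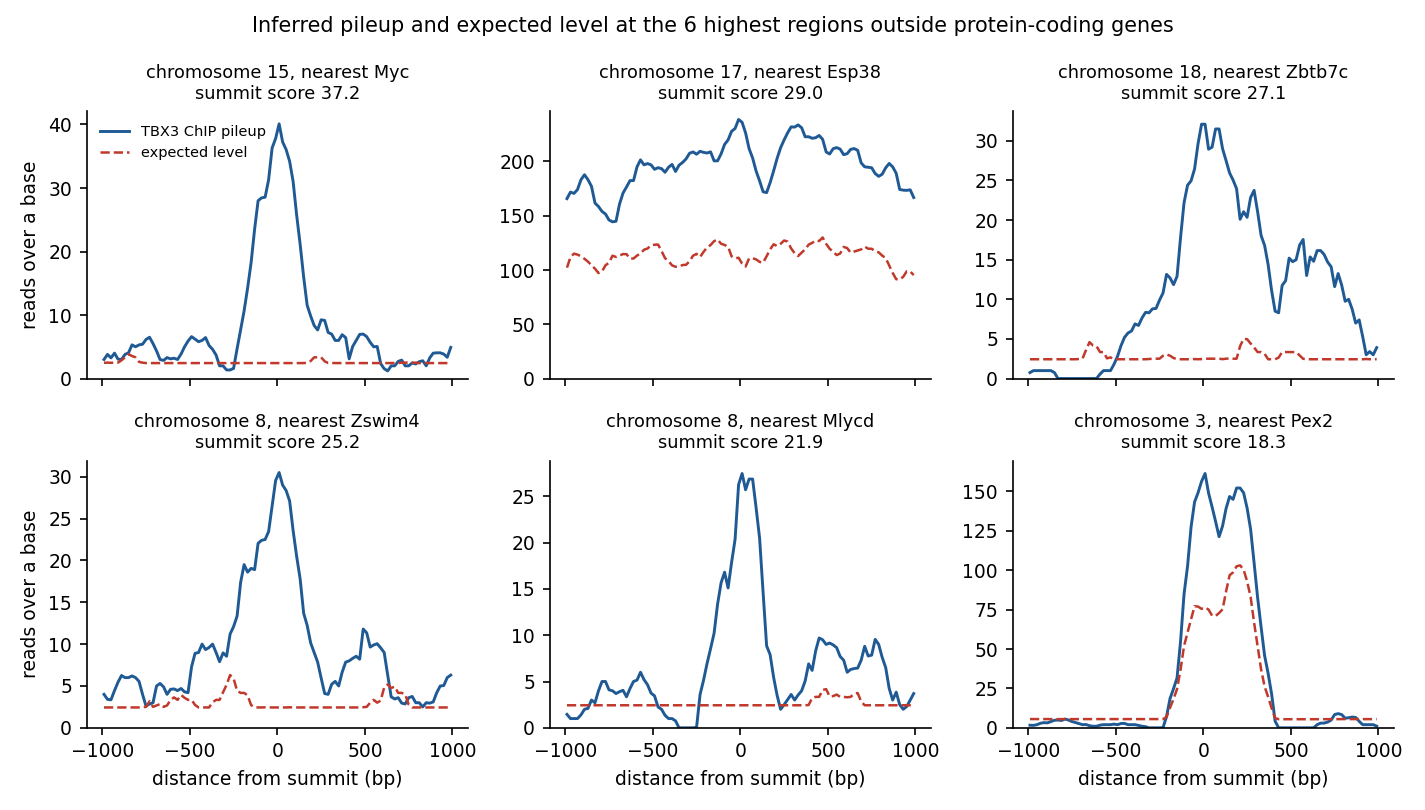
Inferred TBX3 ChIP pileup (solid blue) and expected level (dashed red) in reads over a base, averaged in bins of 20 bp, within 1000 bp of the summit of the 6 highest regions outside protein-coding genes. Near Myc, Zbtb7c, Zswim4 and Mlycd the highest bin held 27.45 to 40.1 reads and the expected level stayed at or under 6.30 reads, whereas near Esp38 and Pex2 the expected level was itself high, at 106 and 74.3 reads at the summit.

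The other regions among the 15 highest with an expected level near genome-wide had scores from 14.5 to 16.3 and between 22 and 24 reads at the summit. One lay 20475 bp from Ccl2, the chemokine that recruits monocytes, with 24 reads over 2.50 expected. Another, also with 24 reads over 2.50, lay between Pkd2l1 and Scd2, which encodes a stearoyl-CoA desaturase of lipid synthesis, at 18777 bp from the former. A region of 210 bp with 23 reads over 2.43 lay 7671 bp from Malat1, an abundant nuclear long noncoding RNA. The region nearest to a protein-coding gene in the whole class was among them, with 23 reads over 2.50 at 1140 bp from Ndel1, which encodes a dynein regulator. The remaining ones lay 40874 bp from Ypel5, with 23 reads, and 22146 bp from Lif, a cytokine of the interleukin 6 family, with 22 reads and inside the noncoding gene Gm11958. Just below these 15, and named after its value was seen, a region with 21 reads over 2.43 lay 31273 bp from Ccnd1, which encodes cyclin D1 of the G1 phase (score 13.6).

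A smaller set of regions had a high expected level. At least 4 times the genome-wide level was expected at 25 of the 337 summits (7.42%, interval 5.08 to 10.7), against 3 of 213 at gene ends (1.41%) and 4 of 223 inside genes (1.79%). At these 25 summits the pileup ran from 28 to 241 reads and was 1.74 to 3.96 times the expected level, with a median of 2.18, whereas the median over all regions of the class was 4.52. Their scores ran from 5.17 to 29.0 with a median of 9.18. The Poisson score grows with the number of reads at a given ratio, and both levels were high in these places. Repeats were not annotated here.

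The highest expected level of the class belonged to the longest region, chr17:39843003-39848819, with 241 reads over 106 expected and a score of 29.0. The annotation places Rn18s-rs5, an 18S ribosomal RNA related sequence, at chr17:39846354-39848202 inside this region, and its nearest protein-coding gene, Esp38, was 104460 bp away. Pileup and expected level stayed high throughout, at 166 over 102 reads on average 990 bp before the summit and 167 over 95.4 reads at the same distance after it. The next in order of expected level was chr11:109011565-109012077, inside the noncoding gene Gm36876 and 61156 bp from Axin2, the Wnt feedback inhibitor, with 177 reads over 96.0. After it came chr3:5860359-5860869, 281890 bp from Pex2, with 162 reads over 74.3.

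The next 2 lay in a group of 8 regions on chromosome 10 whose summits spanned 7390 bp, from 3109490 to 3116880. Within this group the summits held 67 to 124 reads over 29.2 to 66.0 expected, a ratio of 1.74 to 2.39, with scores from 7.31 to 13.2. All 8 are thus among the 25 summits with a high expected level, where this single place is counted as 8 regions. The first annotated protein-coding gene of the chromosome, 9230019H11Rik, was 2961 to 10351 bp away. Among the 15 highest regions, those nearest to Zfp608, Csmd1 and Samd9l also had high expected levels, of 14.2, 39.2 and 35.9 reads. The 2 regions without an inferred pair of levels lay side by side between Ly6c1 and Ly6c2, with scores of 5.84 and 4.66.

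**Figure D3:**
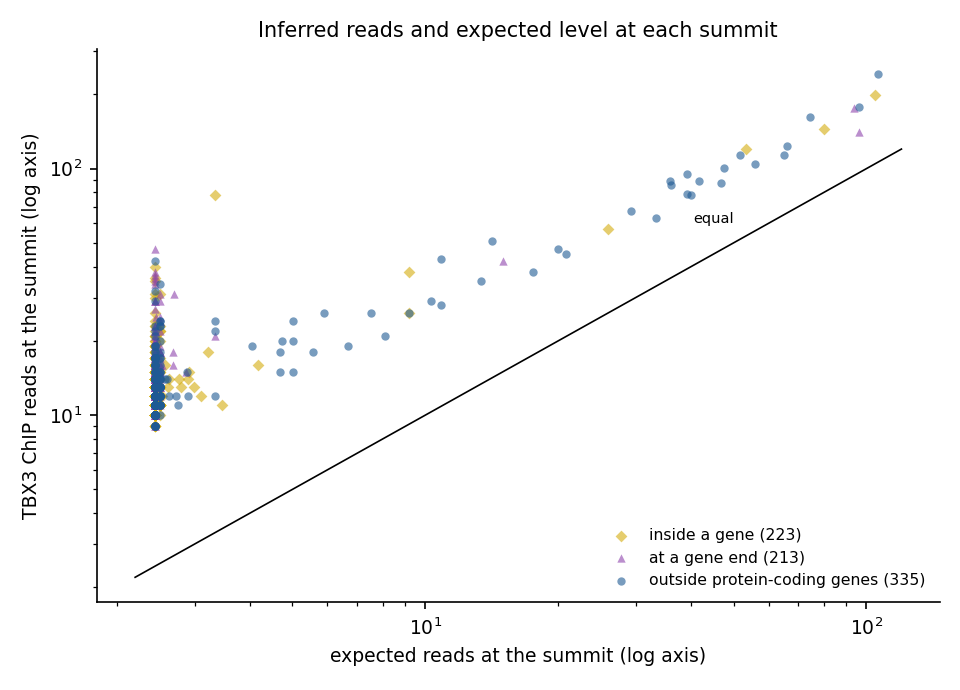
TBX3 ChIP reads (vertical) against expected reads (horizontal) at each summit, both inferred and on log axes, for 335 regions outside protein-coding genes (blue circles), 213 at gene ends (purple triangles) and 223 inside genes (yellow diamonds), with a line where they are equal. Most summits stand at the genome-wide level of 2.43 expected reads, and the 25 regions outside genes with at least 4 times that level run parallel to the line at 1.74 to 3.96 times the expected reads.

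Noncoding genes, meaning all annotated genes of other biotypes, were at the summit of 64 of the 337 regions (19%, interval 15.2 to 23.5). Of the bases outside protein-coding genes, 13.9% lay in a noncoding gene. The gene was a long noncoding RNA for 57 regions, a pseudogene for 6, a transcribed pseudogene for 1 and a small nucleolar RNA, inside a long noncoding RNA gene, for 1. The ends of noncoding genes lay within 1 kb of 19 summits (5.64%, interval 3.64 to 8.64), against 4.12% of bases. These intervals cover counting only and are no test, since regions of a single track are not replicates. The first lay above its background and the second contained it. The first share also had an interval above 13.9% with regions called anew from bases scoring at least 10 (15.2 to 64.6). The same held beyond 5 kb from gene ends (14.2 to 22.9) and with each read pair counted once (14.2 to 42.1). It held as well without high expected levels (15.8 to 24.7) and without chromosome 10 (15.6 to 25.1). The share of bases was not computed anew for the ground beyond 5 kb from gene ends or without chromosome 10. For these settings 13.9% is therefore not a matched background. Under 4 other settings the interval of the first share contained 13.9%. The share was 15.5% (13.3 to 17.9) when gaps of up to 100 bp were bridged. With the expected level raised to chromosome depth it was 17.9% (13.1 to 24.1). It was 23.7% (13.0 to 39.2) for regions called anew from bases scoring at least 5. For the 13348 runs of at least 100 bp it was 13.6% (13.0 to 14.1). From the side of the genes, 61 of the 20158 noncoding genes centred in this ground (0.303%) held a summit. The median score was 5.75 both with and without a noncoding gene at the summit.

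After the regions in Gm32006, Gm11958 and Gm36876, the next highest in a noncoding gene was chr11:75461334-75461659. It had a score of 12.4 from 20 reads over 2.50 expected, with its summit 12 bp from the lower-coordinate end of Mir22hg. This is the host gene of the microRNA miR-22. The region chr2:26639213-26639487 lay in Snhg7, a host gene of small nucleolar RNAs, with its summit within Snora17 and a score of 11.7 from 19 reads over 2.43. At Neat1, the RNA that scaffolds nuclear paraspeckles, a region of 731 bp had a score of 10.7 from 18 reads over 2.43. Its summit lay 52 bp from the higher-coordinate end of the gene. Another region, in the body of Neat1, had 12 reads. It held no call with each read pair counted once, or with the expected level raised to chromosome depth. A region with 16 reads lay 1336 bp outside the gene and held a call under both.

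The other regions of this group had between 15 and 17 reads over 2.43 or 2.50 expected. The one in 2410080I02Rik had a score of 9.85 and lay 5661 bp from Klf9, which encodes a Krüppel-like transcription factor. The one in Gm34891 had a score of 8.98 and lay 8260 bp from Bcl3, which encodes a nuclear cofactor of NF-κB. The region in Lncpint had a score of 8.80 and, like the one in Gm2788, held no call with each read pair counted once. The region in Gm2788, with a score of 8.13, lay 1249 bp from E2f8, an atypical E2F that represses transcription. It lay 418 bp from a higher region, with a score of 15.5 from 23 reads, that was counted at the end of E2f8 itself. Gaps of more than 30 bp were not joined, so the regions stayed separate.

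A list of 51 known noncoding genes was drawn up with earlier results of these data known and includes Gm2788, which overlaps E2f8, so its count is a description that depends on this choice. Of the 51 genes, 48 were in the annotation, of which 43 were long noncoding RNAs and the others small RNA genes such as Terc, Rmrp and Mir122. Of these, 4 held a region outside protein-coding genes at the summit or within 1 kb, namely Mir22hg, Neat1, Lncpint and Gm2788, against 74 of all 27923 noncoding genes (0.265%) on the same criterion. The listed genes were not matched to all noncoding genes in length or place. Lncpint, for example, spans 124912 bp, and only 20158 of the 27923 were centred outside protein-coding genes. Any region was held by 5, the further one being Snhg1 with a highest score of 12.6 at a site counted with another class. The highest score within 1 kb of a listed gene had a median of 3.02, and 20 of the 48 stayed under 3. Malat1, Firre and Airn reached 4.31, and the imprinted gene H19, which is abundant in fetal liver, reached 2.44.

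Distances to the nearest protein-coding gene ran up to 1698864 bp, with a median of 53532 bp and quartiles of 10790 and 176647 bp. Between 1000 and 5000 bp from a gene lay 39 regions (11.6%), against 7.47% of the bases of this ground, and between 5000 and 10000 bp lay 41 (12.2%), against 6.87%. The shares from 10000 to 50000 bp were 24.6% of regions and 25% of bases, and from 50000 to 100000 bp 15.7% and 13.3%. From 100000 to 500000 bp lay 92 regions (27.3%), against 33% of bases, and beyond that 29 (8.61%), against 14.3%. The median score was 6.51 from 5000 to 10000 bp, 5.01 beyond 500000 bp and 5.75 in each of the other ranges.

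**Figure D4:**
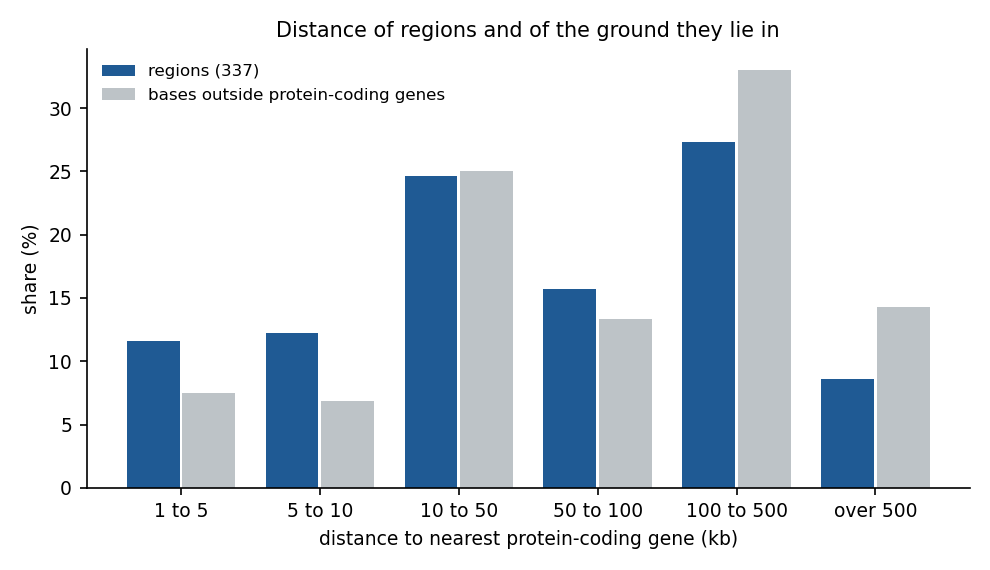
Share in percent of the 337 regions (blue) and of the bases outside protein-coding genes (grey) in 6 ranges of distance to the nearest protein-coding gene in kb. Regions took a larger share than the bases below 10 kb (11.6% against 7.47% and 12.2% against 6.87%) and a smaller one beyond 100 kb.

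The 5 most remote regions had 10 to 13 reads over 2.43 expected, against a median of 12 reads in the whole class. The farthest lay 1698864 bp from Adgrl3, an adhesion receptor gene, with a score of 5.01. The others lay 1539323 bp from Tmeff2 (score 4.31), 1316387 bp from Hace1 in the noncoding gene Gm35552 (4.31), 1263903 bp from Cited2, a transcriptional coregulator gene (5.75), and 1078749 bp from Celf4 in the noncoding gene Gm33621 (6.51). At the near side of the distance limit, the closest regions were those at 1140 bp from Ndel1 and 1249 bp from E2f8, with scores of 15.3 and 8.13. Just past it, and counted at gene ends, were regions 972 bp from Ccl20, 896 bp from Bicdl1 and 865 bp from Id2, with scores of 8.80, 14.3 and 10.7. At the length limit, regions of 200 bp near Nmur2, Ulbp1 and Tafa2 had scores of 4.31, 7.31 and 5.75, and runs of 199 bp near 9230019H11Rik, Ptprk and Reep3 had 8.75, 8.13 and 7.31. There were 65 regions less than 10 bp above the length limit and 89 runs at most 10 bp below it, so the limit fell where runs were many.

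The 337 regions had 298 different nearest protein-coding genes. More than 1 region had the same nearest gene for 27 genes, which took 66 regions. At the top, 7 genes took at least 3 regions each, and 5 of these lie on chromosome 10, namely 9230019H11Rik, Avpr1a, Atxn7l3b, Mgat4c and Btg1, an antiproliferative gene. With the expected level raised to chromosome depth, none of the 12 regions of Avpr1a, Atxn7l3b, Mgat4c and Btg1 held a call, nor did any with each read pair counted once. Btg1 had 3 regions at 68290 to 278570 bp with scores of at most 6.37. The other genes were Frmd8, whose 3 regions were the ones at Neat1, and 9530057J20Rik. Another region of the class lay within 10 kb of 26 regions (7.72%), and a region at or in a gene lay within 10 kb of 3 (0.89%).

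Genes picked for large intergenic stretches beside them, most of them developmental regulators, were nearest to 5 regions out of 337 (1.48%), against 1.75% of the ground. These were the pair near Myc and single regions near Id2, Sall1 and Shh. The one near Id2, an inhibitor of basic helix-loop-helix factors, lay 2026 bp away with 14 reads. Those near Sall1 and Shh lay 277210 and 356194 bp away with 12 reads each. None of these single regions, near Id2, Sall1 or Shh, held a call with each read pair counted once. The one near Shh also held none with the expected level raised to chromosome depth. For those near Id2 and Sall1 that level was not raised, since their chromosomes lay below the median depth. Of 37 hepatocyte genes, including Alb, Glul, Cyp2e1 and Lgr5, only Axin2 was nearest to a region, which is 0.297% of regions against 0.356% of the ground, and that region had the high expected level given above.

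Chromosome 10 held 71 of the 337 regions (21.1%) and 127 of all 773 called regions, so regions at and in genes were also many there. The 71 were 9.83 per 10 Mb of ground outside protein-coding genes, against a median of 2.03 over chromosomes, 6.52 on chromosome 19 and 0.568 on chromosome 4. The mean inferred ChIP pileup relative to the median autosome was 1.41 on chromosome 10, 1.19 on chromosome 19 and 0.701 on chromosome 4. The order of the chromosomes was not the same throughout, since chromosome 8 held 2.75 regions per 10 Mb at a relative depth of 0.959, chromosome X 1.63 at 1.09 and chromosome 5 1.74 at 1.01. The expected level in most of the genome was the same genome-wide value on every chromosome. When it was raised on chromosomes above the median depth in proportion to their depth, 17 of the 71 regions on chromosome 10 and 184 of all 337 (54.6%) still held a called region, all of the 15 highest among them. Calls were also lost on chromosomes only just above the median depth. Chromosome 5, at a relative depth of 1.01, kept 9 of 14 regions, and chromosome 11, at 1.02, kept 11 of 21. Chromosome 1, at 1.05, kept 5 of 24. A base with 8 reads over 2.43 expected scored 3.02, close to the limit of 3, so a small rise can move such a base below it. On chromosomes at or below the median depth the level was not changed, so regions there kept their calls by construction. Among the 15 highest this holds for those near Zbtb7c, Zswim4, Mlycd and Pex2, among others. Without chromosome 10, 266 of 646 regions (41.2%) lay outside protein-coding genes.

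**Figure D5:**
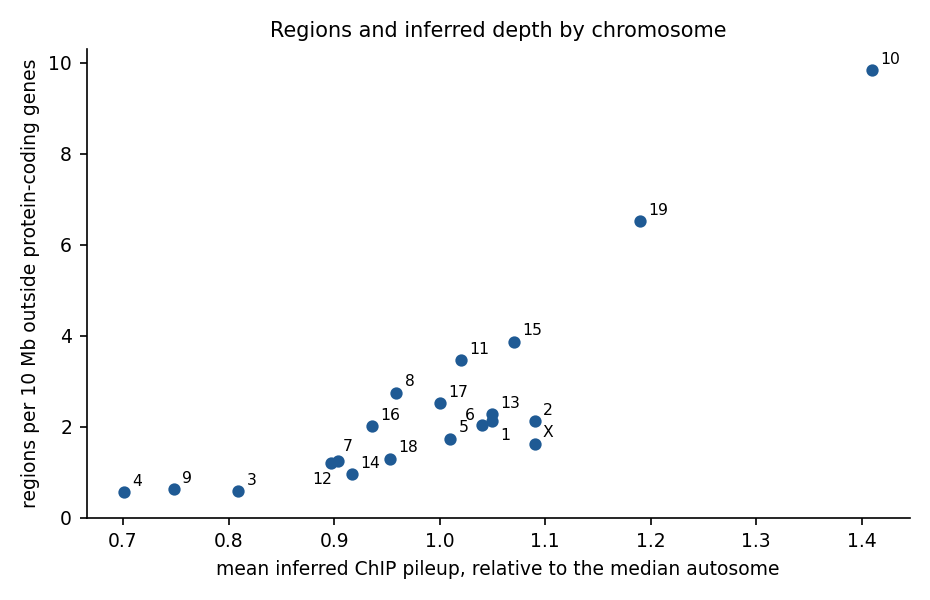
Regions per 10 Mb of ground outside protein-coding genes (vertical) against the mean inferred ChIP pileup relative to the median autosome (horizontal), with 1 point per chromosome labelled by its name. Chromosome 10 stands at 9.83 regions and 1.41 and chromosome 19 at 6.52 and 1.19, while chromosomes 3, 4 and 9 have the lowest depths and 0.568 to 0.627 regions per 10 Mb.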

How the data were processed

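Members, lists and alternatives were chosen with earlier results of these data known. The authors mapped reads to mm10 with Bowtie2, used SAMtools for sorting and deposited −log10 p-values from MACS2 as 1 track of 110667813 intervals (versions not given in the sources used here). It has no column per library (0 columns with values of single samples). Whether both replicates entered it, and how duplicates were treated, is not given in the sources used here, and depth per library is unknown. Genes came from RefSeq GRCm38.p6 without strand (21631 protein-coding and 27923 others on these chromosomes). The ground was all bases except stretches of over 5 kb with 1 score. Regions named are the 15 highest, the 10 highest at noncoding genes, the 5 with the highest expected level, the 5 most remote and 3 on each side of each limit, of which 1 is not reported here, and those in or nearest to a listed gene (such as Myc, Id2, Sall1, Shh, Axin2 and Neat1). Those near Ccnd1 and Btg1, the smaller one near Zswim4 and other neighbours of named regions or genes with several regions were named after their values were seen. Pileup and expected level were inferred along each region with fragments of 150 bp and Input windows of 150, 1000 and 10000 bp. The levels were chosen so that changes between neighbouring intervals were smallest, and intervals that needed a large step could be skipped. Steps were at most 3 reads in 331 of 337 regions, which this choice favours by construction. Calling and inference were tested on reads simulated under the same Poisson model, fragment length and windows. This cannot show whether these settings match those behind the deposited track. No genome sequence was used here, so no sequence is shown. Scripts used statsmodels 0.14.6, pyarrow 21.0.0, scipy 1.17.1, pandas 2.3.3, numpy 2.4.6, matplotlib 3.10.9 and Python 3.11.15.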

Additional observations from a re-analysis of the deposited data

How the results depend on the processing

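The values below are the number of regions, their share among all called regions and the share with a noncoding gene at the summit. With regions called anew from bases scoring at least 5, they were 38, 30.4% and 23.7%. From bases scoring at least 10, they were 11, 37.9% and 36.4%. They were 13348, 57.5% and 13.6% with a minimum length of 100 bp, and 35, 31.2% and 25.7% with each read pair counted once, where 30 of the 337 regions (8.9%) still held a call. Joining gaps of up to 100 bp gave 969 regions, 50.9% and 15.5%. Requiring more than 5 kb from gene ends gave a share of 38.6%. Raising the expected level to chromosome depth, which changed only chromosomes above the median depth and was added after seeing the data, gave 184 regions, 40.1% and 17.9%. In each of these the cause was not tested, except that a higher limit, a longer distance or a raised level by construction keeps fewer bases. Leaving out expected levels of at least 4 times genome-wide gave 312, 42.1% and 19.9%, and leaving out chromosome 10, also added, gave 266, 41.2% and 19.9%. Counting noncoding genes within 1 kb gave 22.0%. The search for T-box motifs was not run, since no sequence was used. No paired analysis was possible because the track has no value per replicate. At the median of 12 reads a summit rests on few reads, and reads of a pair, if both were counted, are not independent.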
